A study of Mus musculus with 8 samples.

Results

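The core circadian clock genes were examined in the cardiac ventricles of tumor-bearing and control mice. They are the 10 genes Arntl (the gene of BMAL1), Clock, Npas2, Per1, Per2, Per3, Cry1, Cry2, Nr1d1 and Dbp, chosen by their symbols out of the 43346 genes in the table of counts. Ventricular RNA was sequenced from 8 male C57BL/6 mice. At 7 weeks of age, 4 mice received 1000000 LLC1 cells under the skin of the left flank, and 4 received the PBS vehicle. LLC1 is the Lewis lung carcinoma line, a lung adenocarcinoma line of C57BL/6 origin, so that the tumor grew in mice of its own strain. Echocardiography and the collection of the hearts were both done on day 14. Each mouse was 1 library, and the mice are named by their replicate codes, LLC1 1-2, 1-3, 1-5 and 2-2 and PBS 1-1, 1-3, 2-1 and 2-5. The hour of day at which each heart was collected is not given in the sources used here, and neither is the meaning of the first number of the replicate code.

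The clock of heart cells is a transcriptional feedback loop. BMAL1 pairs with CLOCK or with its relative NPAS2, and the pair binds E-box sequences and drives the Per, Cry, Nr1d1 and Dbp genes. PER and CRY proteins then block that pair, while REV-ERBalpha, the product of Nr1d1, represses Arntl from RORE sequences. As background, the transcripts of the loop therefore rise and fall over the day in a fixed order, with Arntl near its peak when Dbp and Nr1d1 are near their trough, so a level in a heart depends on the hour of collection. In a piece of bulk ventricle, fewer cells of a type cannot be told apart from less RNA per cell.

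The DNA letters of this loop could be located in the promoters of 6 of these genes. Promoter windows from RefSeq (GRCm38.p6) run from 250 bases before to 50 bases after a start site, and 9 of the 10 genes had at least 1, with 13 windows in all. The search was for the E-box CACGTG, the E'-box CACGTT, the D-box TTATGTAA or TTACGTAA, which DBP and its relatives bind, and the RORE TAGGTCA or TGGGTCA, on both strands. The stretches below are shown because they hold those letters in genes of each arm of the loop. They run 5′ to 3′ on the strand of the gene, and the capitals mark the motifs.
Per1, chr11:69098743-69098842, plus strand, in an intron of a longer Per1 transcript, with an E-box: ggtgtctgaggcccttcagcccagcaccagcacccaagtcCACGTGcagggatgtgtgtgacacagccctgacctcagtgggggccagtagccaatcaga
Cry1, chr10:85185065-85185164, minus strand, upstream of the gene, with an E'-box and then an E-box: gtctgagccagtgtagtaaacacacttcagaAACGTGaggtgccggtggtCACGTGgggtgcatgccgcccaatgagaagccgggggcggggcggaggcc
Per3, chr4:151044796-151044895, minus strand, upstream of the gene and within the span of Camta1 but in no exon, with a pair of D-boxes: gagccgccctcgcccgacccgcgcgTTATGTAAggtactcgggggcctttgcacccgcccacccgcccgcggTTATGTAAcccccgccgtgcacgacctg
Nr1d1, chr11:98775378-98775475, minus strand, upstream of the gene, with an E'-box: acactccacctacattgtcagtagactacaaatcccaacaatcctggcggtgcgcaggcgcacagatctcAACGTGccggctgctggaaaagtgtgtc
Arntl, chr7:113207529-113207558, plus strand, in an Arntl exon, with a RORE: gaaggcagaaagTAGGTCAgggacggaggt

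Counted from the start site, the E-boxes began 166 bases upstream in Per1 and 60 bases upstream in Cry1. The E'-boxes began 79 bases upstream in Cry1, 28 bases upstream in Nr1d1 and 166 bases upstream in Cry2. Per3 held its D-boxes 205 and 158 bases upstream, and the RORE of Arntl lay 31 bases into the transcript. Among all 32851 mouse windows, 7.15% held the E-box, 4.68% the E'-box, 1.06% the D-box and 6.45% the RORE, so the D-box was the rarest of these motifs. A match of letters is a description of the window and not a measured binding site.

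None of the 10 genes passed the test between LLC1 and PBS ventricles. By edgeR's quasi-likelihood test with Benjamini-Hochberg adjustment over 16111 genes, 0 of the 10 had an FDR under 0.05 in either direction, against a background of 8.73% of all genes tested. None reached an unadjusted p under 0.05 either, which 25.5% of genes did, and DESeq2, which called 10.3% of all genes, and limma-voom, which called 8.6%, also called 0. The level in the LLC1 mice was the higher one for 6 genes (Per1, Per2, Per3, Cry2, Nr1d1 and Dbp) and the lower one for 4 (Arntl, Clock, Npas2 and Cry1), where 47.9% of all genes had a log2 fold change above 0. The median log2 fold change was 0.18 for the 10 genes and -0.01 for all genes. The groups overlapped for each of the 10, while they did not overlap for 17.2% of all genes. The spread between mice of the same group was larger for these genes than for most others, as it also was for some other lists given below. P-values here test the difference between the groups against the spread between mice, and not the spread itself.

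**Figure D1:**
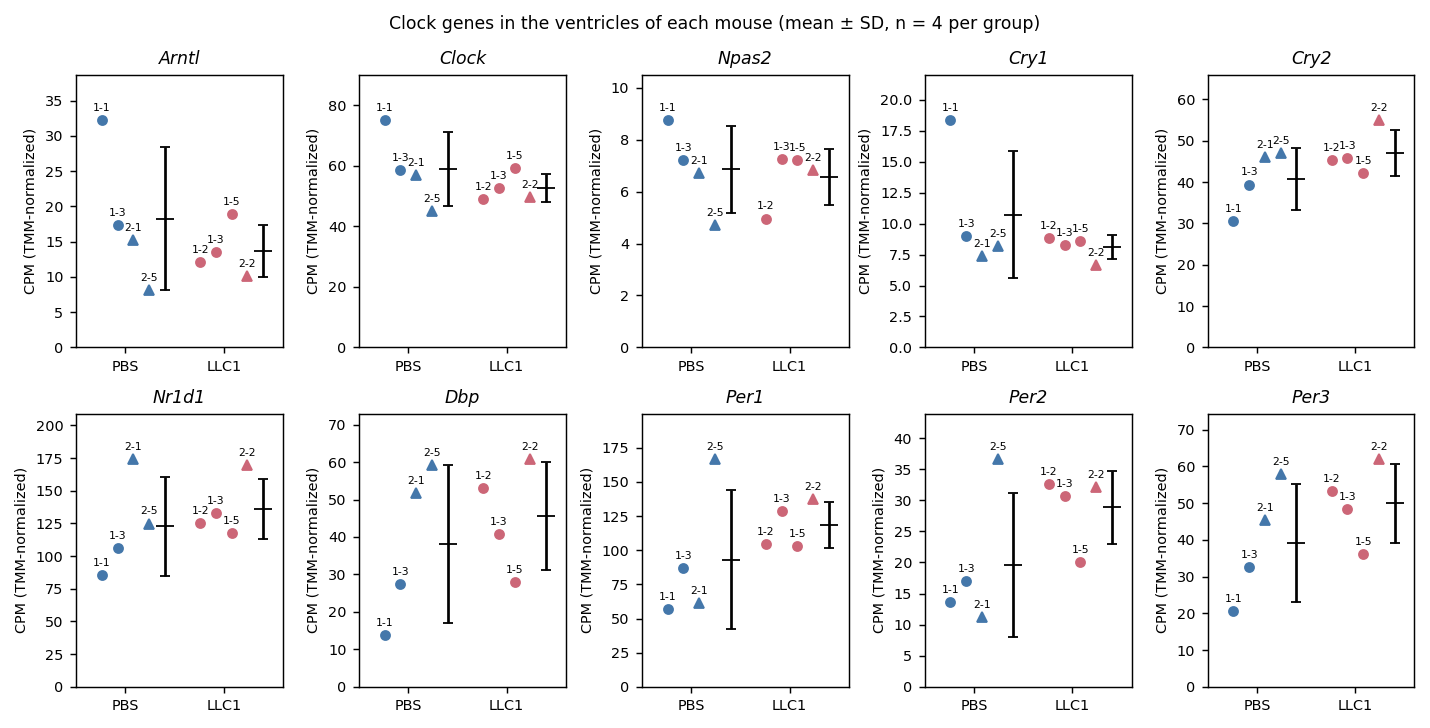
Normalized level (CPM, linear axis from 0) of the 10 clock genes in each mouse. Circles are mice whose replicate code begins with 1, triangles those whose code begins with 2, blue is PBS and red is LLC1, and the black bars give the mean ± SD of 4 mice. Every LLC1 group overlaps its PBS group, and PBS 1-1 holds the highest Arntl (32.3 CPM) and the lowest Dbp (13.7 CPM).

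Levels between genes can be compared only per length, as RPKM computed from the deposited gene lengths. Over all 8 mice, the mean RPKM was lowest for Npas2, at 1.40 with a range of 0.986 to 1.83, and then rose through Cry1 (3.12, 2.22 to 6.09), Per2 (4.14, 1.93 to 6.25) and Per3 (4.63, 2.14 to 6.44). Arntl followed at 5.50, Cry2 at 6.95 and Clock at 7.46. Dbp (14.2, 4.66 to 20.6), Per1 (18.8, 10.1 to 29.6) and Nr1d1 (42.1, 27.9 to 56.5) were the most abundant. The ranges of Npas2 and Cry1 did not overlap, and those of every other neighbouring pair in this order did. Counts shared with an overlapping gene could bear on a few of these levels, because 18.0% of the exon bases of Dbp lie opposite exons of Sphk2, 8.55% of those of Nr1d1 overlap Thra and 4.67% of those of Cry2 overlap D930015M05Rik in GENCODE M21. The strand setting of the counting is not given in the sources used here.

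The activators of the loop are Arntl, Clock and Npas2. Arntl (ENSMUSG00000055116, mm10 chr7:113207465-113314122) had 12.2, 13.6, 18.9 and 10.2 CPM (counts per 1000000 counts, after TMM scaling of the libraries) in LLC1 1-2, 1-3, 1-5 and 2-2, and 32.3, 17.3, 15.3 and 8.09 CPM in PBS 1-1, 1-3, 2-1 and 2-5. The PBS mice thus held both the highest and the lowest level, 3.99-fold apart, and all 4 LLC1 mice lay between them, 1.86-fold apart. The mean was 13.7 ± 3.73 CPM in LLC1 (SD, n = 4) and 18.2 ± 10.2 CPM in PBS (SD, n = 4). The log2 fold change was -0.39 with an SE of 0.32 and a 95% interval of -1.02 to 0.25 (edgeR FDR = 0.488). Without PBS 1-1, it was 0.022.

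Clock (ENSMUSG00000029238, chr5:76212177-76304548), the partner of BMAL1, had 49.0, 52.7, 59.1 and 49.6 CPM in the LLC1 mice and 75.2, 58.8, 57.0 and 45.1 CPM in the PBS mice, in the same order of codes. It followed Arntl closely, with PBS 1-1 again highest and PBS 2-5 again lowest, but over a narrower range of 1.67-fold in PBS and 1.21-fold in LLC1. The log2 fold change was -0.16 with an SE of 0.13 (edgeR FDR = 0.464), and with 1 mouse left out it ran from -0.27 without PBS 2-5 to -0.024 without PBS 1-1. Npas2 (ENSMUSG00000026077, chr1:39193731-39363236), the CLOCK relative, was counted with 75 to 136 reads in a library, and had 4.96, 7.24, 7.22 and 6.84 CPM in LLC1 and 8.75, 7.22, 6.71 and 4.72 CPM in PBS. The same pair of PBS mice held its extremes. Its log2 fold change was -0.04 with an interval of -0.40 to 0.32 (edgeR FDR = 0.913).

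The direct outputs that report the activity of the loop are Dbp and Nr1d1. Dbp (ENSMUSG00000059824, chr7:45705088-45710155), a PAR bZIP transcription factor driven through E-boxes, had 53.0, 40.8, 28.0 and 60.7 CPM in LLC1 1-2, 1-3, 1-5 and 2-2, and 13.7, 27.4, 51.8 and 59.2 CPM in PBS 1-1, 1-3, 2-1 and 2-5. The PBS mice were 4.31-fold apart and the LLC1 mice 2.17-fold. In each group the order of the mice by Dbp was the exact reverse of their order by Arntl. The mean was 45.6 ± 14.4 CPM in LLC1 and 38.0 ± 21.1 CPM in PBS, with a log2 fold change of 0.25, an SE of 0.35 and an interval of -0.45 to 0.94 (edgeR FDR = 0.705). Leaving out PBS 1-1 gave -0.021.

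Nr1d1 (ENSMUSG00000020889, chr11:98767932-98775333), the gene of the repressor REV-ERBalpha, had 125, 133, 118 and 169 CPM in the LLC1 mice and 85.7, 106, 174 and 125 CPM in the PBS mice. PBS 2-1 was highest and PBS 1-1 lowest, a 2.03-fold range. The log2 fold change was 0.15 with an SE of 0.18 (edgeR FDR = 0.645). It was 0.36 without PBS 2-1, 0.080 without PBS 1-3, 0.022 without LLC1 2-2 and 0.014 without PBS 1-1.

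Of the repressors, the 3 Per genes had the largest positive differences between the groups. Per2 (ENSMUSG00000055866, chr1:91415982-91459324) had 32.6, 30.6, 20.1 and 32.1 CPM in LLC1 1-2, 1-3, 1-5 and 2-2, and 13.6, 17.0, 11.3 and 36.6 CPM in PBS 1-1, 1-3, 2-1 and 2-5. Each LLC1 mouse was above 3 of the PBS mice, and PBS 2-5 was above all LLC1 mice. The means were 28.9 ± 5.88 CPM and 19.6 ± 11.6 CPM. The log2 fold change of 0.54 had an SE of 0.30 and an interval of -0.05 to 1.13 (edgeR FDR = 0.284), and an exact permutation test with 70 ways to assign the mice gave p = 0.171, where 0.0286 is the smallest p it allows.

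Per1 (ENSMUSG00000020893, chr11:69095217-69109960), which glucocorticoids also induce, had the same form. It had 105, 129, 103 and 137 CPM in LLC1, and 56.8, 86.9, 61.4 and 167 CPM in PBS, where PBS 2-5 was again above every other mouse and the other PBS mice were below every LLC1 mouse. Its log2 fold change was 0.35 with an SE of 0.27 (edgeR FDR = 0.462). Whether these genes were called depended on PBS 2-5. Without that mouse the log2 fold change was 1.05 for Per2 (edgeR FDR = 0.00751) and 0.79 for Per1 (edgeR FDR = 0.0105), in a comparison in which 10.1% of all genes were called. Per2 was also called when only the mice whose code begins with 1 were compared, 3 LLC1 against 2 PBS, with a log2 fold change of 0.85 (edgeR FDR = 0.0486, 4.53% of all genes called).

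Per3 (ENSMUSG00000028957, chr4:151003652-151044665) had 53.3, 48.3, 36.1 and 61.9 CPM in LLC1 and 20.6, 32.5, 45.4 and 58.0 CPM in PBS. Its order of mice was that of Dbp in both groups, not that of Per1 and Per2. Its log2 fold change was 0.34 with an SE of 0.25 and an interval of -0.15 to 0.83 (edgeR FDR = 0.426). With 1 mouse left out it ran from 0.14 without PBS 1-1 to 0.58 without PBS 2-5.

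The paralogs Cry1 and Cry2, which bind with PER to block CLOCK and BMAL1, lay on opposite sides. Cry1 (ENSMUSG00000020038, chr10:85131702-85185054) had 8.80, 8.30, 8.59 and 6.69 CPM in LLC1 and 18.4, 8.97, 7.36 and 8.20 CPM in PBS. A single mouse, PBS 1-1, stood above the other 7, which lay between 6.69 and 8.97 CPM. The log2 fold change was -0.38 with an SE of 0.25 (edgeR FDR = 0.361), and -0.016 without that mouse.

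Cry2 (ENSMUSG00000068742, chr2:92403646-92434043) had 45.4, 45.7, 42.2 and 55.0 CPM in LLC1 and 30.5, 39.4, 46.0 and 46.9 CPM in PBS. PBS 1-1 was lowest here. The log2 fold change was 0.20 with an SE of 0.13 and an interval of -0.04 to 0.45 (edgeR FDR = 0.334), and it was 0.095 without PBS 1-1 and 0.11 without LLC1 2-2. In a fit with that code number as a covariate, it was 0.30 and was called (edgeR FDR = 0.0389), where 10.4% of all genes were.

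**Figure D2:**
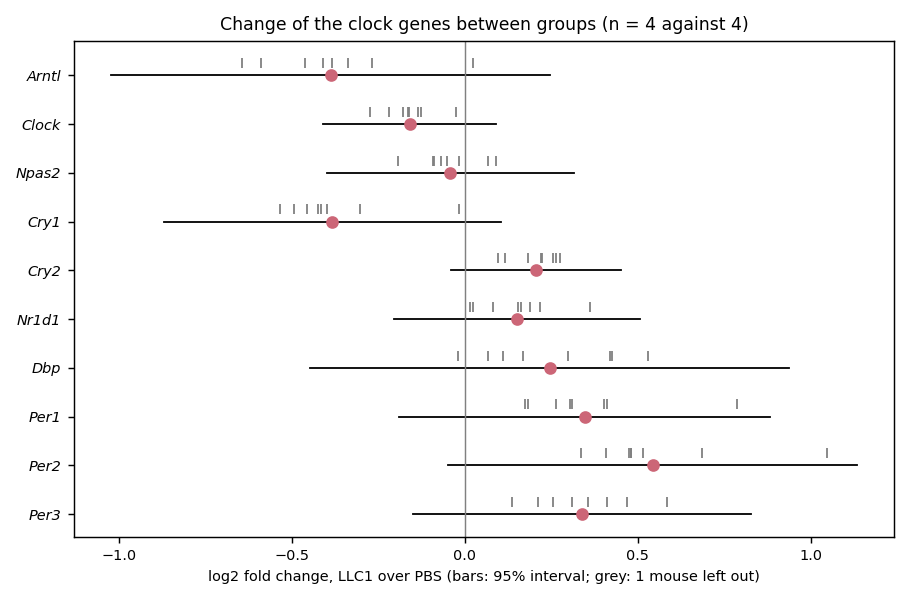
Log2 fold change (LLC1 over PBS) of the 10 clock genes with 95% intervals of 1.96 SE from edgeR's quasi-likelihood fit, and grey ticks for the 8 fits that each leave out 1 mouse. Each interval includes 0, the largest difference is that of Per2, at 0.54, and its grey ticks reach 1.05 without PBS 2-5.

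A ratio of clock genes on opposite sides of the loop orders the mice without reference to the library scale, though its size also depends on the lengths of the genes. The log2 ratio of Dbp to Arntl counts was 2.11, 1.58, 0.56 and 2.56 in LLC1 1-2, 1-3, 1-5 and 2-2, and -1.23, 0.66, 1.75 and 2.85 in PBS 1-1, 1-3, 2-1 and 2-5. It spanned 4.0-fold among LLC1 mice and 16.9-fold among PBS mice, so that the PBS mice again enclosed the LLC1 mice. The means were 1.71 ± 0.86 in LLC1 and 1.01 ± 1.74 in PBS, and the difference was 0.70, and -0.049 without PBS 1-1.

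The log2 ratio of Per2 to Arntl was 1.41, 1.17, 0.09 and 1.65 in LLC1 and -1.24, -0.02, -0.43 and 2.16 in PBS. All 4 LLC1 mice were above 0, and 3 of the 4 PBS mice were below it. The mean was 1.08 ± 0.69 in LLC1 and 0.12 ± 1.46 in PBS. The ratios of Per1, Per3 and Nr1d1 to Arntl placed the same mice at the PBS extremes, 1-1 lowest and 2-5 highest.

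One mouse had its outputs in different positions. PBS 2-1 had the highest Nr1d1 of all 8 mice and more Dbp than PBS 1-1 and 1-3, yet the lowest Per2 and the lowest Per1 but 1. Its log2 ratio of Per2 to Nr1d1 was -3.93, against -2.65, -2.63 and -1.77 in PBS 1-1, 1-3 and 2-5, and -1.94, -2.12, -2.54 and -2.40 in the LLC1 mice. That ratio was chosen after the values were seen. Per1 and Per2 kept nearly the same proportion to each other, within a 1.59-fold range in LLC1 and a 1.30-fold range in PBS. The ratio of Per1 to Per2 was also chosen after the values were seen.

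**Figure D3:**
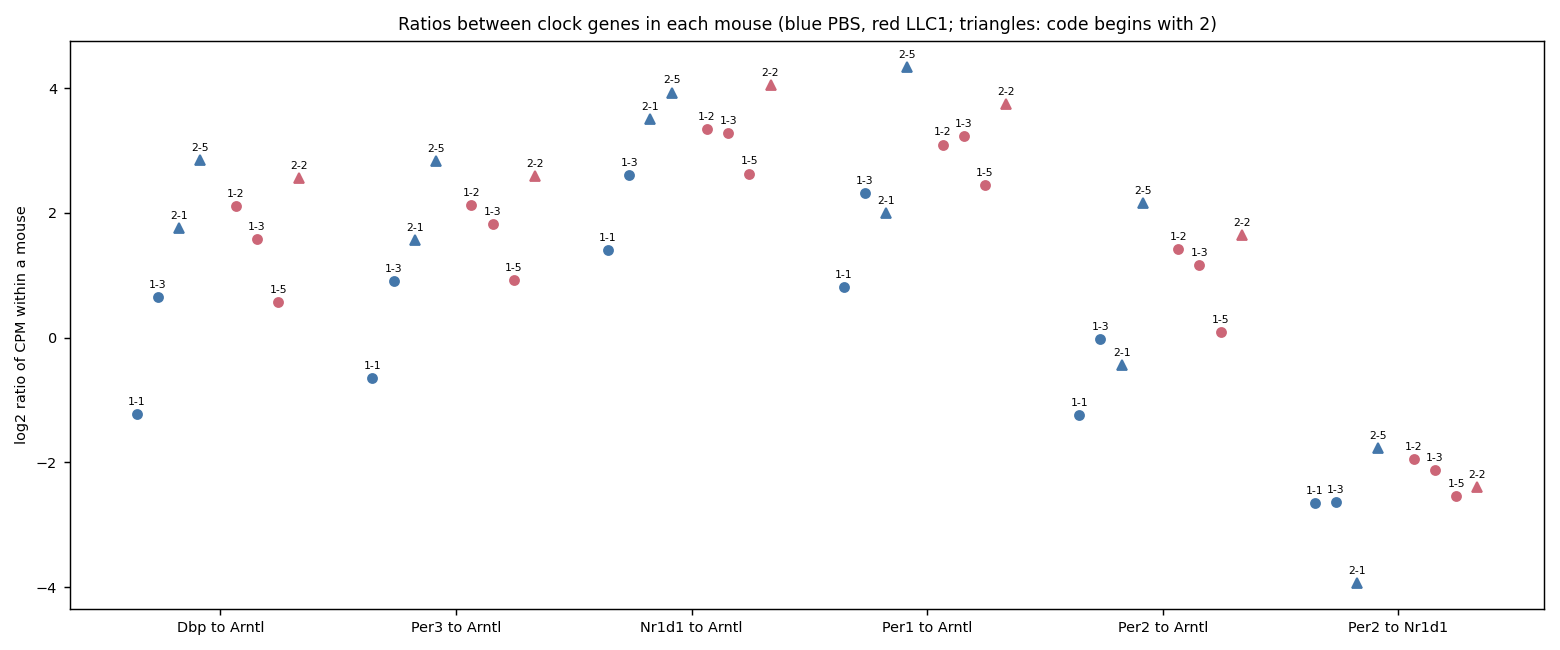
Log2 ratios of clock transcripts within each mouse, with 1 point for each mouse, circles for codes beginning with 1, triangles for codes beginning with 2, blue for PBS and red for LLC1. For Dbp to Arntl, PBS values run from -1.23 in mouse 1-1 to 2.85 in mouse 2-5, and the LLC1 values of 0.56 to 2.56 lie inside that span.

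The levels of the clock genes varied together between mice, to differing degrees. Whether a shared phase of the clock lay behind this was not tested. With each gene's log2 CPM centred on its group, the correlation with Arntl over the 8 mice was 0.99 for Clock, 0.82 for Npas2 and 0.78 for Cry1. It was -0.97 for Per3, -0.93 for Dbp, -0.90 for Cry2, -0.84 for Per1, -0.78 for Per2 and -0.62 for Nr1d1. The genes of a mouse share its library, so these are descriptions, and some of them rest largely on PBS 1-1. Without it the correlation was 0.98 for Clock and -0.94 for Per3, but 0.38 for Cry1 and -0.29 for Nr1d1. Setting Arntl, Clock, Npas2 and Cry1 against the other 6 genes, a division made after the values were seen, all 21 pairs within a side were positively correlated and all 24 pairs between the sides negatively. Without PBS 1-1, 18 and 22 of them kept that sign.

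The closest pairs were Per3 with Dbp (0.99), Arntl with Clock (0.99), Cry2 with Dbp (0.95), Per3 with Cry2 (0.95) and Per1 with Per2 (0.92), while Per2 and Nr1d1, both driven through E-boxes, were near 0 (0.04). Correlations of this size were common in these hearts, since 14.4% of the 15066 genes with a mean of at least 1 CPM were as far from 0 as that of Npas2 with Arntl, and 38.5% were as far as that of Nr1d1. For Clock the share was 0.0730%. Without PBS 1-1 these shares were 19.4% for Npas2, 66.2% for Nr1d1 and 0.285% for Clock. The genes whose pattern was most like that of Arntl were Zfp91 and Sgcb (both 0.997), Pex13 (0.995), AC124496.1 (0.995) and Tnks2 (0.994), and the most opposite were Rhbdf1 (-0.990), Rela (-0.986), Smim1 (-0.986), Trim54 (-0.985) and Mir692-3. None of these 10 belongs to the clock lists used here.

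The first number of the replicate code, which is 1 or 2, went with the levels of several clock genes. Within each group, every mouse with a code beginning with 2 had more Per3, Cry2, Nr1d1 and Dbp, and less Arntl and Cry1, than every mouse with a code beginning with 1. That was 6 of the 10 genes, where 15.4% of all genes tested had code 2 mice beyond code 1 mice on the same side in both groups. With injection in the model, the log2 difference of code 2 from code 1 was 1.04 for Dbp (SE 0.25, edgeR unadjusted p = 0.00123), 0.72 for Per3, 0.55 for Nr1d1 and 0.36 for Cry2. It was -0.85 for Arntl (edgeR unadjusted p = 0.00568), -0.61 for Cry1 and -0.27 for Clock. Of the 10 genes, 7 had an unadjusted p under 0.05, against a background of 11.9%. No gene was called after adjustment: by edgeR's quasi-likelihood test 0 of 16111 genes (0.0%) had an FDR under 0.05, 1920 had an unadjusted p under 0.05, and the FDR of the 10 genes ran from 0.317 to 0.629. No other tool was run on this contrast. Of 9 vascular markers, none passed adjustment (0 with an edgeR FDR under 0.05) and 4 had an unadjusted p under 0.05. Their log2 difference was 0.74 for Myh11 of smooth muscle (edgeR unadjusted p = 3.1e-06, FDR = 0.0506), 0.44 for Pdgfrb of pericytes and 0.38 and 0.31 for Tie1 and Cdh5 of endothelium, while Acta2, Rgs5, Pecam1, Kdr and Emcn lay between -0.13 and 0.083. Their part in the clock values was not tested.

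LLC1 held 3 mice of code 1 and 1 of code 2, and PBS held 2 of each, so the code was not balanced over the injection. Within code 1, the log2 difference of LLC1 from PBS was 1.01 for Dbp, 0.83 for Per2, 0.80 for Per3 and 0.67 for Per1, and -0.69 for Arntl and -0.58 for Cry1. Within code 2, which had a single LLC1 mouse, it was 0.13 for Dbp, 0.65 for Per2, 0.27 for Per3 and 0.44 for Per1, and -0.13 for Arntl and -0.21 for Cry1. Each of these 6 differences was nearer to 0 among code 2 mice. The values for code 1 and code 2 were 0.39 and 0.20 for Nr1d1, 0.36 and 0.24 for Cry2, -0.31 and -0.03 for Clock, and -0.31 and 0.28 for Npas2. For 9 of the 10 genes both differences had the sign of the pooled one, and the exception was Npas2. The part of the code, or of anything that goes with it, in the difference between injections was not tested further.

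The spread between mice of the same group was larger than for most genes. The biological coefficient of variation, which edgeR estimates for each gene after removing counting error, had a median of 0.242 over the 10 genes and 0.100 over all genes tested. It was 0.354 for Dbp, at the 99th percentile of all genes, 0.312 for Arntl, at the 98.4th, 0.295 for Per2, at the 98th, and 0.270 for Per1, at the 97.1st. Per3 (0.248) and Cry1 (0.235) were also past the 95th percentile, which makes 6 of the 10. Clock (0.128) and Cry2 (0.126), at the 70.5th and 69.3rd, varied least. A spread of this size was not particular to the 10 genes. The median was 0.243 for the immediate early genes and 0.206 for the glucocorticoid-induced genes listed here. It was 0.107 for the further clock genes and 0.129 for the clock-controlled genes.

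The spread was also unequal between the groups. The SD of log2 CPM was larger in PBS than in LLC1 for all 10 genes, with a median of 0.62 in PBS and 0.24 in LLC1. Over all genes tested the SD was larger in PBS for 67.8%, with medians of 0.17 and 0.13. Part of this goes with a single library: without PBS 1-1, the PBS median was 0.39 for the 10 genes, of which 8 were wider in PBS, against 53.8% of all genes. The difference in spread between the groups was not tested.

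**Figure D4:**
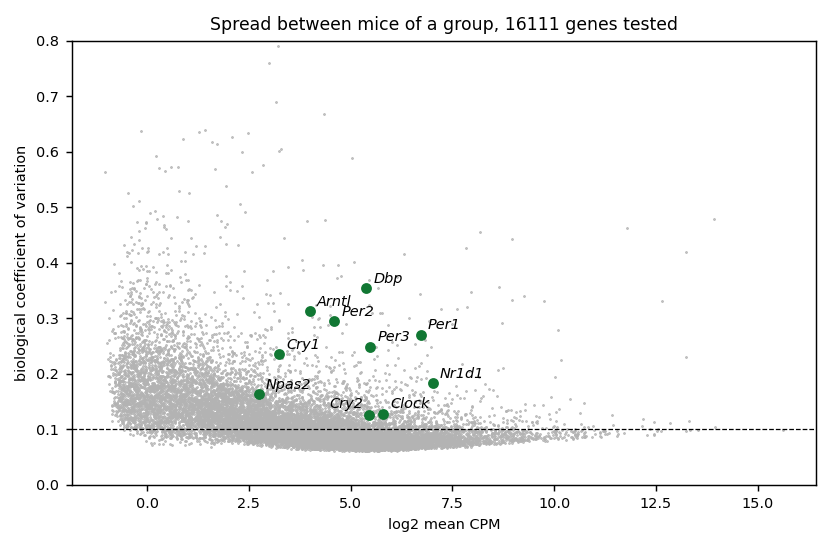
Biological coefficient of variation against mean log2 CPM for all 16111 genes tested (grey), with the 10 clock genes marked and the median of all genes, 0.100, as a dashed line. Dbp, Arntl and Per2 lie well above the bulk of genes of their level, and Clock and Cry2 lie near it, while 2 genes above the axis limit of 0.8 are not drawn.

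Some further genes of the clock moved between mice in the same way. Of 17 listed, 16 were tested, and Fbxl21 was too low. By edgeR's quasi-likelihood test 0 of the 16 were called and 1 had an unadjusted p under 0.05, against 8.73% and 25.5% of all genes. DESeq2 called 1, against 10.3% of all genes, and limma-voom called 0, against 8.6%.

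The Nr1d1 paralog Nr1d2 had 127 ± 10.7 and 112 ± 14.5 CPM (log2 fold change 0.18, edgeR FDR = 0.250). The PAR bZIP gene Tef ran from 110 CPM in PBS 1-1 to 207 CPM in PBS 2-5, and Ciart, a further repressor of CLOCK and BMAL1, from 3.43 to 11.7 CPM in the same mice. Nfil3, the repressor that competes with DBP for D-boxes, ran the other way, from 25.4 CPM in PBS 1-1 to 8.21 CPM in PBS 2-5. With Arntl, the centred values correlated at -0.96 for Tef, -0.92 for Nr1d2, -0.91 for Ciart and 0.91 for Nfil3, over the same 8 mice.

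Among genes that the clock drives in heart, some were called. Of 12 listed, 2 were called higher in LLC1 and 0 lower, against a background of 4.12% of genes called higher and 4.61% lower. The list's median log2 fold change was 0.26, against -0.01 for all genes, and 11 of 12 were above 0, against 47.9% of all genes. Klf15, a transcription factor of cardiac metabolism and ion channel rhythm, had 100, 110, 114 and 103 CPM in LLC1 and 56.5, 70.5, 53.7 and 73.6 CPM in PBS, with no overlap. Its log2 fold change was 0.75 with an SE of 0.10 (edgeR FDR = 0.00167), and the exact permutation p was 0.0286. Its correlation with Arntl between mice was -0.40, which 62.1% of genes reached, and -0.14 without PBS 1-1.

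Kcnip2, the potassium channel subunit that KLF15 regulates, had 211 ± 10.8 CPM in LLC1 and 178 ± 10.6 CPM in PBS, also without overlap (log2 fold change 0.25, SE 0.07, edgeR FDR = 0.0340). That call was lost with total-count scaling (edgeR FDR = 0.154) and among code 1 mice alone (edgeR FDR = 0.0701). It was also lost without LLC1 1-2, 1-3, 1-5 or 2-2 or PBS 1-3 or 2-5, with edgeR FDRs between 0.0516 and 0.121. In these fits the log2 fold change ran from 0.20 to 0.28. The correlation of Kcnip2 with Arntl between mice was -0.09, which 91.8% of genes reached, and 0.08 without PBS 1-1. Usp2, a deubiquitinase gene with E-boxes, was the listed gene closest to an inverse of Arntl (-0.97, and -0.99 without PBS 1-1). It had 120 ± 14.4 and 99.5 ± 22.2 CPM (log2 fold change 0.26, edgeR FDR = 0.251), and was called without PBS 2-5 (0.42, edgeR FDR = 0.0315), among code 1 mice alone (0.44, edgeR FDR = 0.0489) and with the code as a covariate (0.37, edgeR FDR = 0.0418). The covariate fit called 3 of the 12 genes, Klf15, Kcnip2 and Usp2, where 10.4% of all genes were called in either direction. For Kcnip2, the log2 fold change was as large as that of Myh6, a marker of the cardiomyocytes themselves (0.24). Those of the 7 ventricular cardiomyocyte markers ran from -0.36 for Ttn to that of Myh6, with 4 above 0 and 3 below it. The part of cell composition in the Kcnip2 value was not tested.

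Glucocorticoids set the phase of peripheral clocks and induce Per1 directly, so genes they induce are given beside it. Of 13 such genes tested, among them Per1 and Klf15, 2 were called higher, Klf15 and Klf9 (log2 fold change 0.34, edgeR FDR = 0.0372), and 7 had an unadjusted p under 0.05, against 4.12% of all genes called higher and 25.5% with such a p. Of the 13, 12 had a log2 fold change above 0, and it was -0.40 for the exception, the kinase gene Sgk1 (edgeR FDR = 0.225). The call of Klf9 was lost with total-count scaling (edgeR FDR = 0.110), and without any single LLC1 mouse, PBS 1-3 or PBS 2-1 (edgeR FDR 0.0547 to 0.109). Fkbp5, a chaperone of the glucocorticoid receptor, had 34.4, 37.7, 31.0 and 36.8 CPM in LLC1 and 16.1, 21.6, 15.0 and 35.1 CPM in PBS. As for Per1 and Per2, 3 PBS mice were below all LLC1 mice, but PBS 2-5 lay within the LLC1 range here and above it for Per1 and Per2. Its log2 fold change was 0.66 (edgeR FDR = 0.0739), and 0.99 without PBS 2-5 (edgeR FDR = 0.00148). With all 8 mice it was also called by edgeR's likelihood ratio test (FDR = 0.0259), by limma-voom (FDR = 0.0437), with genes of at least 1 count (edgeR FDR = 0.0147) and with the code as a covariate (edgeR FDR = 0.0483), but not by DESeq2 (FDR = 0.120). Tsc22d3, a further glucocorticoid target, had 152 to 156 CPM in LLC1, and 109, 120, 88.8 and 181 CPM in PBS, with PBS 2-5 highest. The part of this in the Per1 and Per2 values was not tested.

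Library totals ranged from 12480706 to 19747596 counts. PBS 1-1, at the low end, stood apart from the rest on the second principal component of all genes (35.3 against -23.3 to 8.71 in the others) and had 18482 CPM of Ttn, against 7893 to 9030 CPM in the other 7 mice. Of the atrial markers, Myl7 (at most 2.04 CPM), Myl4 (at most 2.95 CPM) and Sln (at most 0.35 CPM) were low in each mouse, and Nppa, which stressed ventricle also expresses, ran from 110 to 336 CPM, highest in LLC1 2-2. Of 7 ventricular cardiomyocyte markers, 1 was called higher in LLC1, Myh6 (log2 fold change 0.24, edgeR FDR = 0.0209), against 4.12% of all genes. Myh6, Tnnt2 and Myl3 did not overlap between the groups, where 17.2% of all genes did not. Of the 7, 4 had a log2 fold change above 0 and 3 below it, Ttn (-0.36), Ryr2 (-0.17) and Actc1 (-0.05). The Myh6 call was lost with total-count scaling (edgeR FDR = 0.124), by edgeR's likelihood ratio test (FDR = 0.0925), among code 1 mice alone (edgeR FDR = 0.0796) and without LLC1 1-3 or 1-5 or PBS 1-3 or 2-1 (edgeR FDR 0.0641 to 0.0924). Summed markers of other cells were lower in LLC1 or overlapped. Endothelial markers summed to 652 to 768 CPM in LLC1 and 757 to 1008 CPM in PBS with 2 of 5 called lower, pericyte and smooth muscle markers to 735 to 795 against 845 to 992 CPM with 0 of 4 called, fibroblast markers to 607 to 681 against 639 to 738 CPM with 2 of 5 called lower, and leukocyte markers to 103 to 127 against 99.6 to 156 CPM with 1 of 4 called lower, against 4.61% of all genes called lower. Of the adipocyte markers, Adipoq was at most 0.34 CPM, Plin1 at most 0.22 CPM and Ucp1 at 0, while Cidea had 31.0 ± 2.50 CPM in LLC1 and 26.3 ± 1.86 CPM in PBS (edgeR FDR = 0.0950). Immediate early genes, which respond to handling and stress, had 1 of 10 called lower in LLC1, Egr1 (log2 fold change -1.55, edgeR FDR = 0.00690), against 4.61% of all genes. All 10 had a log2 fold change below 0, with a median of -0.58, and 6 had an unadjusted p under 0.05, against 25.5% of all genes. Their part in the clock values was not tested.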

How the data were processed

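Ventricular RNA of 4 LLC1-injected and 4 PBS-injected male mice was sequenced as TruSeq libraries (150-base paired-end reads). The authors deposited whole-number counts per gene, not normalized, with gene positions and lengths. The submitters' processing notes name CASAVA, STAR, featureCounts and mm10, without versions. The annotation is not given in the sources used here. RPKM was computed here from the deposited lengths.

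Genes were kept by filterByExpr (16111 of 43346), scaled with TMM factors and compared by the quasi-likelihood test of edgeR 4.0.16 in R 4.3.3, unpaired and without covariates. P-values were adjusted over all genes tested by Benjamini-Hochberg, and an FDR under 0.05 was a call. SE is the absolute log2 fold change over the square root of F, and 95% intervals are 1.96 SE. Correlations and SDs of log2 CPM used a prior count of 2. Gene overlaps were read from GENCODE M21. DESeq2 1.42.0, limma 3.58.1, other scalings and filters, the code as a covariate, and each mouse left out were tried. The script was tested on simulated data.

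The 10 genes and the lists (further clock genes, clock outputs, glucocorticoid and immediate early genes, cell markers) were chosen with earlier results of these data known. Genes named are the 10, list genes with a call or a clock role, and the 5 most and least like Arntl. Proteins and genes without a promoter entry were not analysed here. The values of 1 further clock gene are not reported here.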

Additional observations from a re-analysis of the deposited data

Results flagged for a closer look

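Among 78 groups of 4 values examined, in 4 the highest or lowest mouse stood far from the others, with a gap that took most of the group's whole range. Chance gives about 1 in 20 groups, so that 4 of 78 is about the number that chance alone gives. Per2 was at 20.1 CPM in LLC1 1-5, below 30.6 to 32.6 CPM in the other LLC1 mice (0.841 of the range). Cry1 was at 18.4 CPM in PBS 1-1, above 7.36 to 8.97 CPM in the other PBS mice (0.853 of the range). The same mouse had 18482 CPM of Ttn, the gene of the sarcomere protein titin (0.982 of the range). Myh6, the gene of the adult cardiac myosin heavy chain, was at 56460 CPM in LLC1 1-5 (0.847 of the range).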

How the results depend on the processing

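Each of the 10 clock genes was recomputed under 18 alternatives, and of these 180 values 172 kept their direction and their side of the threshold, 4 passed it and 4 changed sign. With 1 mouse left out, the log2 fold change ran from -0.64 to 0.022 for Arntl, from -0.19 to 0.090 for Npas2, from -0.021 to 0.53 for Dbp and from -0.020 to 0.66 for Ciart. The sign changed without PBS 1-1 for all 4, for Npas2 also without LLC1 1-2 (0.067), and for Ciart also without LLC1 2-2 (-0.017). The count of the 10 genes called higher was 1 with the code as a covariate (Cry2), 1 among code 1 mice alone (Per2, chosen after seeing the data), and 0 to 2 when 1 mouse was left out, with the 2 being Per1 and Per2 without PBS 2-5. Of the further clock genes, 1 was called higher with DESeq2, with edgeR's likelihood ratio test and with genes of at least 1 count, 1 with the covariate (Nr1d2, edgeR FDR = 0.0389), and 0 to 1 with 1 mouse left out, and 1 was called lower among code 1 mice alone (Nfil3, -0.73, edgeR FDR = 0.0201). Of the clock-controlled genes, 1 was called higher with total-count scaling, 4 among code 1 mice alone and 1 to 4 with 1 mouse left out. The share of all genes called in either direction was 10.3% with DESeq2, 11.5% with the likelihood ratio test and 5.53% with genes of at least 1 count. It was 10.4% with the covariate, 6.32% with total-count scaling, 4.53% among code 1 mice alone and 3.32% to 11.9% with 1 mouse left out. Over the whole table, 663 genes were called higher and 743 lower. Total-count scaling gave 225 and 793 and moved the median log2 fold change of all genes from -0.01 to -0.06, code 1 mice alone gave 337 and 398, and leaving out 1 mouse gave 212 to 908 and 330 to 1041. Fewer mice entered the last 2 kinds of fit, and the cause of the other changes was not tested. No paired analysis was possible because the groups share only 1 replicate code, carried by different mice. With 4 mice a group, the SE of the log2 fold change of the 10 genes ran from 0.13 (Clock and Cry2) to 0.35 (Dbp), so the size of difference that could be detected varied between genes. The unknown hour of collection limits every level given here.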
